A study of Mus musculus with 6 samples.

Results

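Nuclear receptor genes were followed in small intestinal epithelium taken from mouse embryos at E18.5. The set was a list of 40 genes chosen by receptor family and ligand, of which 38 had a probe set naming that gene alone, out of 19938 genes tested. Nr1h2, the oxysterol receptor LXR beta, and Nr2e3, a photoreceptor orphan receptor, were not analysed here, and the list leaves out the receptors for bile acids and vitamin D and the HNF4 receptors. The samples were 3 arrays labelled Gata4Gata6 double conditional knockout (cKO) and 3 arrays labelled control, all at E18.5 and all from epithelium of the small intestine. The labels do not name the Cre driver, the deleted exons, the strain or the genotype of the controls. They also do not say whether each array stands for its own embryo, so the p-values cover only how far these samples differ among themselves, a spread that may be technical. Levels are the authors' log2 values, 1 per probe set and array. A change is the mean of the arrays labelled cKO minus the mean of the control arrays on that scale, given with its SE and with n = 3 arrays in each group. A gene was called when limma's p, adjusted by Benjamini-Hochberg over all 19938 genes, was under 0.05.

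Nuclear receptors are transcription factors, most of which carry a DNA-binding domain of paired zinc fingers. Most also have a pocket for a small lipophilic ligand, such as a steroid, a retinoid, thyroid hormone or a fatty acid. Many of them bind DNA together with a retinoid X receptor at repeats of the half-site AGGTCA, recruit corepressors or coactivators according to the ligand, and so tie transcription to hormones and nutrients. In the intestine they are known for roles in lipid absorption, drug metabolism, thyroid-dependent maturation and local steroid synthesis. GATA4 and GATA6 are zinc finger factors of the gut endoderm that bind GATA sequences, and the series asks how this epithelium differs when both are absent.

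Transcripts of the targeted genes did not check the labels. Gata6 stood at 12.72, 12.69 and 12.72 on the arrays labelled cKO, against 12.23, 12.28 and 12.27 on the control arrays, and Gata4 changed by 0.47 ± 0.07 (adjusted p = 0.0101). Both were higher, not lower, with the cKO label, and a probe set sums probes along the whole gene, so a transcript that lacks some exons can still give signal. Every direction below rests on the labels. A pair of arrays also stood apart. On cKO 2 the mean of 8 hepatocyte markers was 13.09, while cKO 1 and 3 had 9.0 and 9.09, and controls 1, 2 and 3 had 10.4, 8.81 and 11.68. All 8 of these markers were highest on cKO 2, as were 6 of 7 erythroid, 7 of 8 endothelial and 6 of 8 immune markers. Control 3 had a Xist level of 6.18, against 11.74 to 12.42 on the other 5 arrays, so it is the only array with a male pattern. No value of any marker list was 0. The 10 epithelial and enterocyte markers averaged 11.44 to 11.74 on the arrays labelled cKO and 12.04 to 12.11 on the control arrays. Of these, 60.0% were called, beside 12.9% of all genes. The 4 called lower were Fabp2 (−2.73), Apoa4 (−1.56), Sis (−0.76) and Apoa1 (−0.46). The 2 called higher were Epcam and Krt8, both at 0.32. Vil1 and Cdh1, at −0.11 and 0.19, were not called, and the median change of the 10 was −0.01. Epcam, Krt8 and Apoa1 lost their calls in every fit lacking 1 array except that without cKO 2. Sis lost its call without control 1 or control 3.

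With the cKO label, 4 of the 38 receptor genes rose and 2 fell. The 4 were Pparg, Rarg, Nr2f2 and Esr1, and the 2 were Thrb and Esrrg. That is 15.8% of the receptor genes, where 12.9% of all genes were called. Taken by direction, the receptor genes gave 10.5% higher and 5.26% lower, beside 5.52% and 7.42% of all genes. These shares are near the background, and the median change of the receptor genes, −0.01, was that of all genes, with a mean of 0.04. Without adjustment 14 receptor genes had a p under 0.05, beside 26.6% of all genes. The values of the 2 groups did not overlap in 18 receptor genes, 10 with cKO above and 8 with cKO below, which is 47.4% beside 32.6% of all genes. A change of at least 1 (a doubling) was reached by 1 receptor gene, Pparg. Of the 32 receptor genes that were not called, 22 had a 95% interval lying inside −0.5 to 0.5. The intervals of the remaining 10 reached to or past that range. Without control 3 and cKO 2, 3 receptor genes were higher and 3 lower. In bulk RNA, fewer cells of a type and less of a transcript per cell cannot be told apart.

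**Figure D1:**
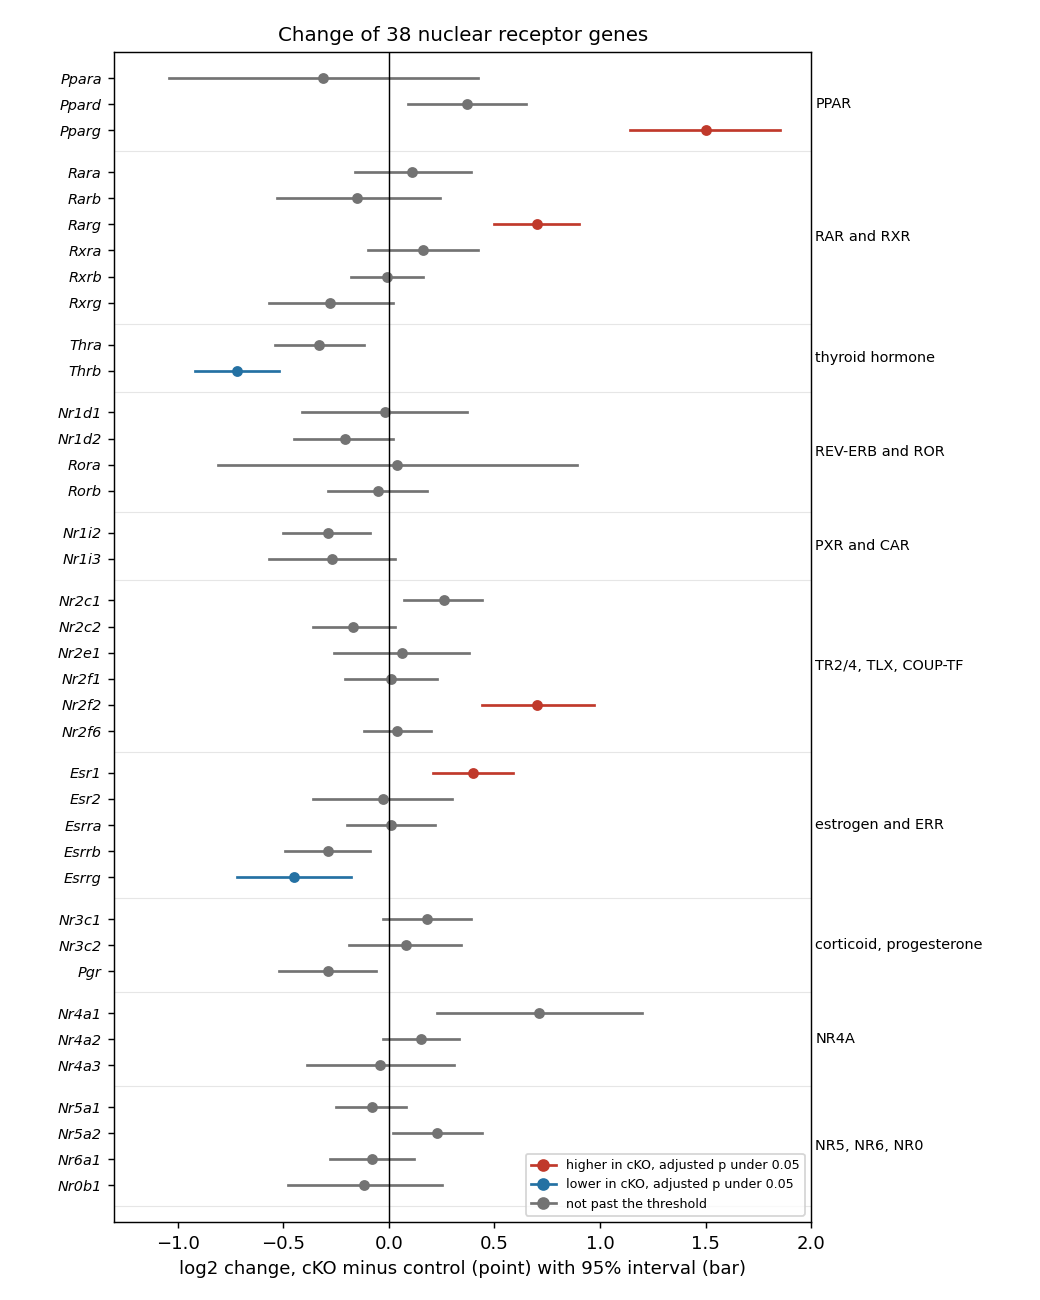
Change of each of the 38 receptor genes (log2, arrays labelled cKO minus control arrays), grouped by family, with points for the fitted change and bars for its 95% interval, n = 3 arrays in each group. Pparg lies farthest from 0 at 1.5, Thrb is the lowest at −0.72, and most other intervals cross or lie close to 0.

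Promoter sequences are shown for 4 of the called genes. The reasons are that the study removes GATA factors and that AGGTCA is a half-site many nuclear receptors bind. RefSeq (GRCm38.p6) gives windows for 35 of the 38 receptor genes, and the 250 bases before each start were searched for GATAA on either strand (GATAA or TTATC) and for the half-site on either strand (AGGTCA or TGACCT). The 2 motifs share no overlap in the sequences printed. Among the 14 windows of the 6 called genes, 2 held the GATA letters (14.3%). The share was 13.0% of the 54 windows of all measured receptor genes and 22.6% of 32851 windows of all genes. The half-site letters stood in 4 of the 14 windows (28.6%), beside 14% of all windows. Below, 1 window with a match is printed for each of Pparg, Thrb, Rarg and Esr1, with the matched letters in capitals. A further window of Pparg, starting at 115360894 on chromosome 6, also holds AGGTCA, and a further window of Rarg, starting at 102257523 on chromosome 15, holds TGACCT. For Nr2f2 and Esrrg no window held either motif, which says only that these letters are not in those bases. A match is a description of the letters and not of binding.
Pparg, chr6:115362099-115362348, plus strand: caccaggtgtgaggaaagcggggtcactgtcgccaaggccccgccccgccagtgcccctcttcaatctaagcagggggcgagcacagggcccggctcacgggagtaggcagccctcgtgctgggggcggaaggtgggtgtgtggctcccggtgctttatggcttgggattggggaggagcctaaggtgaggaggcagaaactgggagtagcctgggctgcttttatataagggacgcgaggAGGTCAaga
Thrb, chr14:17660710-17660959, plus strand: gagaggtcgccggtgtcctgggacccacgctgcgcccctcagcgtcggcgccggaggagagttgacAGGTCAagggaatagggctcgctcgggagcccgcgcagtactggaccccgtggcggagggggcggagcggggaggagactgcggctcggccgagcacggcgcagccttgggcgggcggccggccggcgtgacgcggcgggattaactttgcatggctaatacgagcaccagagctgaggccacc
Rarg, chr15:102246501-102246750, minus strand: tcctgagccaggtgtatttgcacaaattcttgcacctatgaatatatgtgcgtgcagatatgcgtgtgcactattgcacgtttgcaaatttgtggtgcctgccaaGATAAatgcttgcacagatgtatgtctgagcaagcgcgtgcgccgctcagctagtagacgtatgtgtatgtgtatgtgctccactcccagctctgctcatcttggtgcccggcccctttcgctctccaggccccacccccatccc
Esr1, chr10:4611739-4611988, plus strand: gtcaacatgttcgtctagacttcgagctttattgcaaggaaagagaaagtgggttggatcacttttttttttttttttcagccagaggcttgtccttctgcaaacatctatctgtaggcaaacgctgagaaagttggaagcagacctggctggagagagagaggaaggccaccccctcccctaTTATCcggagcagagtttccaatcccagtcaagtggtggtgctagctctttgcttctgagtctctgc

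The largest change was that of Pparg, which encodes PPAR gamma, the fatty acid receptor best known as the driver of fat cell formation and also present in gut epithelium. Pparg (probe set 10540897, chromosome 6) stood at 10.77, 10.42 and 10.71 on the arrays labelled cKO, against 9.09, 8.94 and 9.38 on the control arrays. The lowest cKO array lay above the highest control array. It rose by 1.5 ± 0.15, a 2.82-fold difference (adjusted p = 0.00163), and by 1.6 without cKO 2. Ppard, which encodes PPAR delta, a broadly expressed fatty acid receptor, stood at 10.35, 10.10 and 10.42 with the cKO label, against 9.94, 10.05 and 9.77 in controls (values listed after they were seen). Its groups did not overlap, but the change of 0.37 ± 0.12 was not called (adjusted p = 0.1). It passed without cKO 2 (0.0472) and with the hepatocyte and erythroid markers as a covariate (0.0304).

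Ppara, which encodes PPAR alpha, the receptor that drives fatty acid oxidation in liver and gut, behaved differently on a single array. It stood at 9.57, 10.77 and 9.74 on cKO 1, 2 and 3, against 10.27, 10.33 and 10.41 on the control arrays. The values of cKO 1 and 3 were thus below every control and that of cKO 2 was above every control, so the change of −0.31 ± 0.30 was not called (adjusted p = 0.581). Without cKO 2 the change was −0.68 ± 0.10 (adjusted p = 0.00858), and without control 3 as well it was −0.64 (adjusted p = 0.0305). The hepatocyte list was also highest on cKO 2, at 13.09, and on control 3 it was 11.68, beside a Ppara level of 10.41 there. With the mean of the hepatocyte and erythroid markers as a covariate, the change of Ppara was −0.33 (adjusted p = 0.23).

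Genes known to respond to PPARs were lower or did not pass. Of 14 measured, 5 fell and 0 rose, 35.7% called beside 12.9% of all genes, with a median change of −0.12. The 5 that fell were also the only ones with an unadjusted p under 0.05, so the 0 that rose by limma stayed 0 without adjustment. Cd36, a fatty acid transporter, stood at 8.33, 9.47 and 7.83 on the arrays labelled cKO, against 11.33, 11.12 and 11.44 on the control arrays, and fell by 2.75 ± 0.39 (adjusted p = 0.00666). Plin2, which coats lipid droplets, fell by 1.03 ± 0.10 (adjusted p = 0.00132), and Acot1, an acyl-CoA thioesterase, by 1.19 ± 0.13. Acadl, an acyl-CoA dehydrogenase of fatty acid oxidation, changed by −0.44 ± 0.08 (adjusted p = 0.0178) and was not called without cKO 1, cKO 3, control 2 or control 3. Cpt1a, the fifth of these, was called at −0.39, and of the fits with 1 array removed it passed only in that without cKO 2. The lower count was 3 to 6 with 1 array left out. Without control 3 and cKO 2 it was 4, namely Cd36, Plin2, Acot1 and Cyp4a10, while Acadl and Cpt1a did not pass. Cyp4a10 stood at 6.12, 10.95 and 6.36 on cKO 1, 2 and 3, against 7.48, 7.02 and 7.68 in controls. Its change was 0.42 ± 1.25 with all arrays (limma adjusted p = 0.874) and −1.01 without those 2 arrays (adjusted p = 0.0402). The fat cell genes Adipoq and Fabp4, which PPAR gamma controls in adipose tissue, did not pass, with changes of −0.24 and 0.16.

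**Figure D2:**
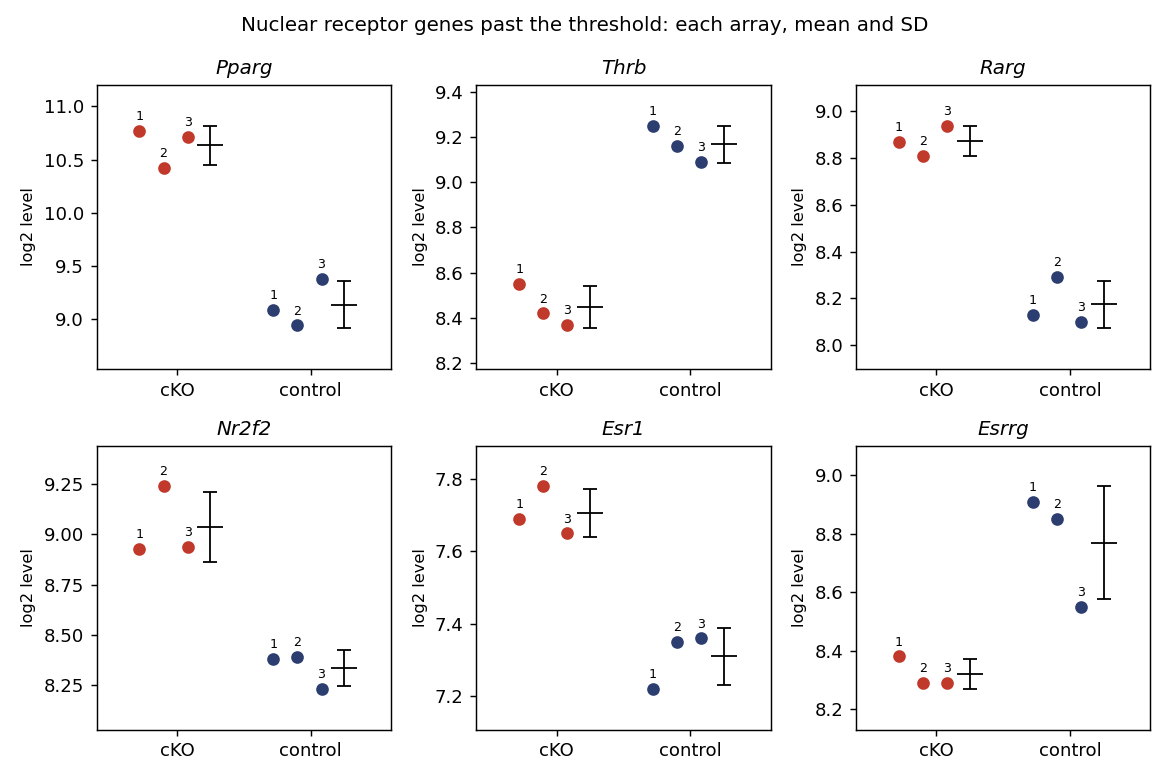
Log2 level of the 6 called receptor genes on each array, with the arrays labelled cKO at left and controls at right. Numbers mark the replicate, bars give mean and SD (n = 3). In all 6 genes every cKO array lies on one side of every control array, and the axes differ between panels.

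Among the retinoid receptors Rarg moved and the others did not pass. Rarg encodes RAR gamma, a retinoic acid receptor of epithelia, cartilage and stem cells. It stood at 8.87, 8.81 and 8.94 on the arrays labelled cKO, against 8.13, 8.29 and 8.10 on the control arrays (probe set 10432972, chromosome 15). It rose by 0.70 ± 0.08, 1.62-fold (adjusted p = 0.0035). Rara, which encodes RAR alpha, changed by 0.11 (95% interval −0.16 to 0.39), and Rarb, a retinoic acid response gene in its own right, by −0.15 (−0.53 to 0.24). Rxra encodes RXR alpha, the common partner of many receptors in the gut, and stood at 10.33, 10.60 and 10.25 with the cKO label, against 10.17, 10.23 and 10.30 in controls. Those ranges overlapped, and the interval of its change was −0.10 to 0.42. Rxrb and Rxrg, which encode the other RXR partners, changed by −0.01 ± 0.07 and −0.28 ± 0.12, and neither passed.

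Among enzymes and response genes of retinoic acid, 1 change passed. Of 13 measured, 0 rose and 1 fell (7.69% called, beside 12.9% of all genes), and the list median was 0.01, with a mean of −0.06. The gene that fell was Aldh1a1, an enzyme that makes retinoic acid, at −0.85 ± 0.19 (adjusted p = 0.032), and of the fits with 1 array removed it passed only in that without control 1. Cyp26b1, which breaks retinoic acid down and is induced by it, changed by 0.01 ± 0.08, with a 95% interval of −0.18 to 0.20.

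Both thyroid hormone receptor genes were lower on every array labelled cKO, and the change of Thrb passed. Thrb, which encodes TR beta, stood at 8.55, 8.42 and 8.37 on those arrays, against 9.25, 9.16 and 9.09 on the control arrays (probe set 10412882, chromosome 14). It fell by 0.72 ± 0.08, 1.65-fold lower (adjusted p = 0.00327). Thra encodes TR alpha, the isoform known from mouse work to carry most thyroid hormone action in the intestinal epithelium. Thra stood at 11.05, 10.81 and 11.01 with the cKO label, against 11.30, 11.30 and 11.25 in controls. The groups did not overlap, and the change of −0.33 ± 0.09 had an adjusted p of 0.0592, on the other side of the threshold in 6 of 17 alternative settings. Thra and Nr1d1 are neighbours that overlap on opposite strands, and whether their probes fall in the shared stretch was not examined.

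Of 10 measured genes of thyroid hormone handling and response, 2 fell and 0 rose (20.0% called, beside 12.9% of all genes), with a median of −0.01. The counts were the same with each array left out in turn, and 2 lower and 1 higher without control 3 and cKO 2, the higher one being Ttr, a hormone carrier that is also on the hepatocyte list. Me1, malic enzyme, a classical thyroid hormone response gene in liver, stood at 8.98, 9.25 and 9.33 on the arrays labelled cKO, against 10.74, 10.63 and 10.81 on the control arrays. It fell by 1.54 ± 0.11 (adjusted p = 0.000601). Slc16a10, a transporter of aromatic amino acids and thyroid hormone, fell by 1.04 ± 0.17. Dio1, a deiodinase of thyroid hormone, had 8.92, 8.17 and 7.87 with the cKO label against 7.50, 7.56 and 7.43 in controls. All its cKO values were above the controls but spread widely, and the change of 0.82 ± 0.26 was not called (adjusted p = 0.0927).

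The clock-linked receptors did not pass. Nr1d1 and Nr1d2 encode the heme-binding repressors REV-ERB alpha and beta, and Rora and Rorb encode activators that compete for the same elements. Nr1d1 stood at 8.45, 7.83 and 8.08 with the cKO label, against 8.25, 8.15 and 8.02 in controls, with overlapping ranges and a change of −0.02 ± 0.16. Nr1d2 changed by −0.21 ± 0.10 and Rorb by −0.05 ± 0.10. Rora stood at 7.42, 8.66 and 7.28 on cKO 1, 2 and 3, against 7.76, 7.66 and 7.82 on the control arrays, values listed after they were seen. As for Ppara, cKO 2 was above every other array and the other cKO arrays were below every control. The change was 0.04 ± 0.35 with all arrays and −0.40 ± 0.10 without cKO 2 (adjusted p = 0.0529). With the hepatocyte and erythroid markers as a covariate, the change of Rora was 0.02 (adjusted p = 0.953). Of 14 clock genes, 1 fell and 0 rose (7.14% called, beside 12.9% of all genes). The lower count was 1 to 2 with 1 array left out. Dbp, an output gene of the clock, fell by 0.62 ± 0.08 (adjusted p = 0.0037), while Per1, a core repressor, changed by −0.17 ± 0.13.

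**Figure D3:**
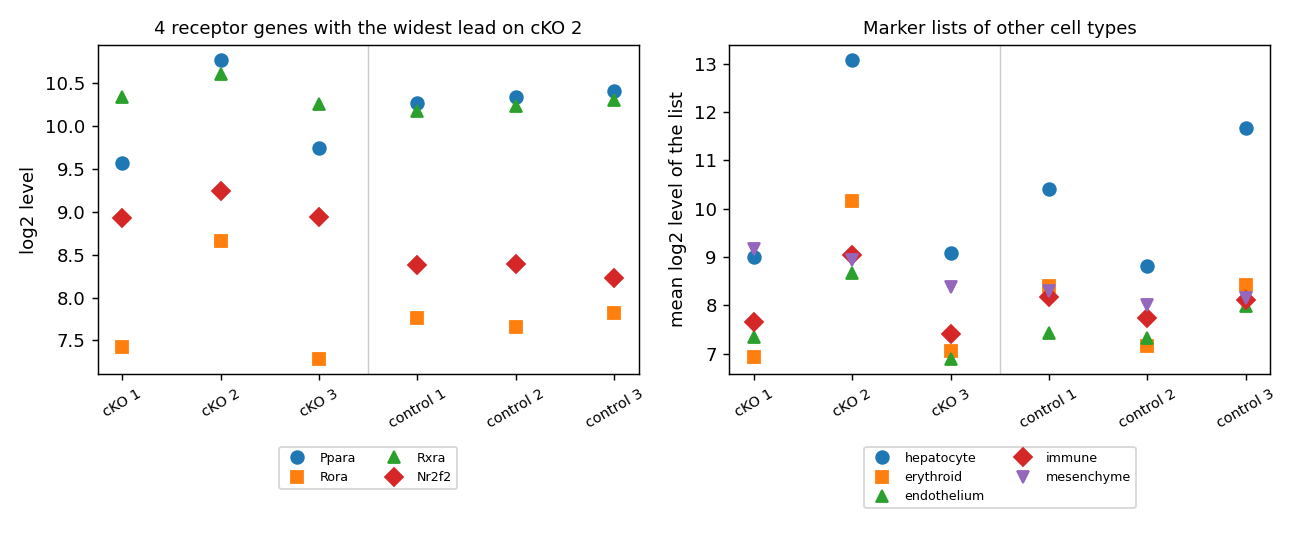
Left, log2 level on each array of the 4 receptor genes picked for the widest lead on cKO 2, with the arrays labelled cKO first. Of the 38 receptor genes, 8 were highest on cKO 2 and 8 were lowest on it. Right, mean log2 level of the markers of 5 other cell types on the same arrays. On cKO 2 Ppara stood at 10.77 and Rora at 8.66, above the other 5 arrays, and the hepatocyte mean was 13.09. Levels of different genes come from different probes and are not to be compared.

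The xenobiotic receptor genes had lower means with the cKO label and did not pass. Nr1i2 encodes PXR, the drug and bile acid sensor of liver and intestine, and stood at 10.48, 10.29 and 10.46 on the arrays labelled cKO, against 10.78, 10.66 and 10.67 on the control arrays. The groups did not overlap, and the change was −0.29 ± 0.08 (adjusted p = 0.0751, under 0.05 in 3 of 17 alternative settings). Nr1i3, which encodes CAR, changed by −0.27 ± 0.12 (adjusted p = 0.225). Of 12 measured genes known to be induced through PXR or CAR, 1 rose and 2 fell (25.0% called, beside 12.9% of all genes), with a median of −0.12 and a mean of the other sign, 0.03. Abcb1a, the drug efflux pump P-glycoprotein, stood at 10.83, 10.43 and 10.47 with the cKO label, against 8.81, 8.76 and 8.74 in controls, and rose by 1.81 ± 0.12 (3.50-fold, adjusted p = 0.000438). Aldh1a7, an aldehyde dehydrogenase, fell by 1.07 ± 0.18, a call lost without control 2 (adjusted p = 0.0514). Cyp3a13, a cytochrome P450 of the gut, was called at −0.76 ± 0.16 but, of the fits with 1 array removed, passed only in that without cKO 1, and the lower count of the list ran from 0 to 3. Cyp3a11, the classical PXR target of mouse liver, reached 8.01 on cKO 2 and stood at 4.75 and 4.88 on cKO 1 and 3, against 5.23, 4.40 and 6.03 in controls. The change of Cyp3a11, 0.66 ± 0.92, did not pass (adjusted p = 0.712), and it was 0.6 with the hepatocyte and erythroid markers as a covariate, where it passed (0.0232).

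Nr2f2 was the orphan receptor that rose. It encodes COUP-TFII, a repressor and developmental regulator known from mesenchyme, veins and lymphatics. Nr2f2 stood at 8.93, 9.24 and 8.94 on the arrays labelled cKO, against 8.38, 8.39 and 8.23 on the control arrays (probe set 10564527, chromosome 7). It rose by 0.70 ± 0.11, 1.63-fold (adjusted p = 0.00917), and by 0.60 ± 0.09 without cKO 2. Markers of the cells in which COUP-TFII is abundant were read beside it. The 10 mesenchymal markers averaged 9.17, 8.94 and 8.37 on cKO 1, 2 and 3, against 8.29, 8.01 and 8.16 in controls. Of these, 0 passed in limma's test with all arrays, beside 12.9% of all genes, and 4 were called higher without cKO 3. An unadjusted p under 0.05 was found for 8 of the 10, beside 26.6% of all genes. On every cKO array 7 of the 10 lay above every control, as did 2851 of all 19938 genes. Among the 8, Pdgfra was below every control on every cKO array, with a change of −0.55. The part of the mesenchymal markers in the Nr2f2 value was not tested. Endothelial markers averaged 7.35, 8.67 and 6.88 with the cKO label, against 7.42, 7.32 and 7.98 in controls. Both Nr2f2 and the endothelial mean were highest on cKO 2, at 9.24 and 8.67. On cKO 3 Nr2f2 was at 8.94, with the endothelial mean at its lowest, 6.88. The part of the endothelial markers in the Nr2f2 value was not tested either.

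The other receptors of this family did not pass. Nr2f1, the COUP-TFI gene, changed by 0.01 ± 0.09 and Nr2f6, a related repressor, by 0.04 ± 0.07 (95% interval −0.12 to 0.20). Nr2c2, which encodes TR4, stood at 10.26, 10.41 and 10.35 with the cKO label, against 10.59, 10.50 and 10.43 in controls, a change of −0.17 ± 0.08. The groups lay close together without overlapping. Nr2c1, which encodes the related TR2, changed by 0.26 ± 0.08 (adjusted p = 0.0874), and Nr2e1, a receptor of neural stem cells, by 0.06 ± 0.13.

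Of 5 estrogen and estrogen-related receptor genes, 1 rose, 1 fell and 3 did not pass. Esr1, which encodes estrogen receptor alpha, stood at 7.69, 7.78 and 7.65 on the arrays labelled cKO, against 7.22, 7.35 and 7.36 on the control arrays (probe set 10367600, chromosome 10). It rose by 0.40 ± 0.08 (adjusted p = 0.0218). It did not pass in any fit with 1 array removed (adjusted p up to 0.0667), nor without control 3 and cKO 2 together (0.102). Esrrg encodes ERR gamma, an orphan activator of oxidative metabolism, and stood at 8.38, 8.29 and 8.29 with the cKO label, against 8.91, 8.85 and 8.55 in controls (probe set 10352576, chromosome 1). It fell by 0.45 ± 0.11 (adjusted p = 0.0456), and of the fits with 1 array removed it passed only in that without control 3 (adjusted p up to 0.147). Esrra, which encodes ERR alpha and shares those targets, stood at 11, 10.89 and 10.90, against 10.84, 11.06 and 10.86 in controls. These ranges overlapped, and the interval of its change was −0.20 to 0.22. Esrrb changed by −0.29 ± 0.08 (adjusted p = 0.0761) and Esr2, the estrogen receptor beta gene, by −0.03 ± 0.14.

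Of 10 measured estrogen and ERR response genes, 3 rose and 1 fell (40% called, beside 12.9% of all genes), with a median of −0.01 and a mean of 0.19. Greb1, an estrogen-induced growth regulator, stood at 9.07, 9.53 and 9.80 on the arrays labelled cKO, against 8.23, 8.18 and 8.38 in controls, and rose by 1.20 ± 0.19 (adjusted p = 0.00876). Without control 3 and cKO 2 its adjusted p was 0.0507. Ccnd1, cyclin D1, and Tff3, a goblet cell trefoil peptide, rose by 1.25 ± 0.17 and 0.52 ± 0.08, and both also answer to many other signals. Vegfa, the endothelial growth factor, was called at −0.73 ± 0.16 (adjusted p = 0.0295), a call lost without cKO 3 or any 1 control array.

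None of the corticoid and progesterone receptor genes was called by limma, and Pgr had an unadjusted p under 0.05. Nr3c1, the glucocorticoid receptor gene, stood at 10.27, 10.50 and 10.28 with the cKO label, against 10.22, 10.16 and 10.13 in controls. The change was 0.18 ± 0.09 (95% interval −0.03 to 0.39). Nr3c2, the mineralocorticoid receptor gene, changed by 0.08 ± 0.11, and Pgr, the progesterone receptor gene, by −0.29 ± 0.10 (adjusted p = 0.111). Of 14 genes of glucocorticoid response and handling, 4 rose, 2 fell and 8 did not pass (42.9% called, beside 12.9% of all genes), with a median of −0.01 and a mean of 0.16. The higher count was 2 to 4 and the lower count 2 to 3 with 1 array left out, and both were 2 without control 3 and cKO 2.

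Within that list Hsd11b2, the enzyme that inactivates glucocorticoids in mineralocorticoid target cells, stood at 9.94, 9.05 and 9.74 on the arrays labelled cKO, against 7.60, 7.57 and 7.47 on the control arrays. It rose by 2.03 ± 0.22, 4.08-fold (adjusted p = 0.00256). Scnn1a, a subunit of the sodium channel that mineralocorticoids regulate, fell by 0.94 ± 0.08 (adjusted p = 0.00107). Of the classical glucocorticoid-induced genes, Tsc22d3 fell by 1.06 ± 0.13 and Fkbp5 rose by 0.76 ± 0.10 (adjusted p = 0.00425 and 0.00573), so those 2 moved in opposite directions. The other rises, Sgk1 and Dusp1, were called at adjusted p of 0.017 and 0.0467 and named after their values were seen. Sgk1 lost its call without control 2 or control 3. Of the fits with 1 array removed, Dusp1 passed only in that without cKO 3.

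The NR4A receptors are orphan factors induced within minutes by stress and growth signals. Nr4a1, listed after its values were seen, stood at 9.11, 8.40 and 8.52 on the arrays labelled cKO, against 7.98, 8.13 and 7.78 on the control arrays. The groups did not overlap, and the change of 0.71 ± 0.20 was not called (adjusted p = 0.0695; 0.043 without cKO 2). Nr4a2 stood at 8.55, 8.51 and 8.65 with the cKO label, against 8.39, 8.40 and 8.48 in controls, a change of 0.15 ± 0.07, and Nr4a3 changed by −0.04 ± 0.15. Of 14 other immediate early genes 1, Dusp1, rose and 0 fell (7.14% called, beside 12.9% of all genes), and the median was 0.02. Fos, the most used marker of such induction, had 8.33, 7.82 and 7.69 with the cKO label, against 9.05, 8.54 and 8.12 in controls, a change of −0.62 ± 0.27 that did not pass (adjusted p = 0.203).

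Nr5a2 encodes LRH-1, a receptor of crypt renewal, bile acid balance and intestinal steroid synthesis. It stood at 10.39, 10.53 and 10.57 on the arrays labelled cKO, against 10.22, 10.38 and 10.20 on the control arrays. The groups barely separated, and the change of 0.23 ± 0.09 did not pass (adjusted p = 0.158). Nr5a1, which encodes SF-1 of the adrenal and gonad, changed by −0.08 ± 0.07. Nr6a1, a receptor of germ cells and early embryos, and Nr0b1, a repressor of SF-1 and LRH-1, changed by −0.08 ± 0.08 and −0.12 ± 0.15.

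Among genes for partner proteins of the receptors, 1 coactivator gene passed. Of 8 corepressor genes measured, limma called 0 and 0 had an unadjusted p under 0.05, beside 12.9% and 26.6% of all genes. Their changes ran from −0.16 to 0.15. Of 13 coactivator genes, 1 fell and 0 rose (7.69% called, beside 12.9% of all genes), with a median of −0.04. That gene was Ppargc1a, which encodes PGC-1 alpha, a coactivator of PPARs and ERRs in mitochondrial metabolism. It stood at 10, 9.65 and 9.73 on the arrays labelled cKO, against 10.56, 10.27 and 10.50 on the control arrays. It fell by 0.65 ± 0.13 (adjusted p = 0.02), a call lost without cKO 3, control 1 or control 3 (adjusted p up to 0.0782) and without control 3 and cKO 2 (0.119).

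**Figure D4:**
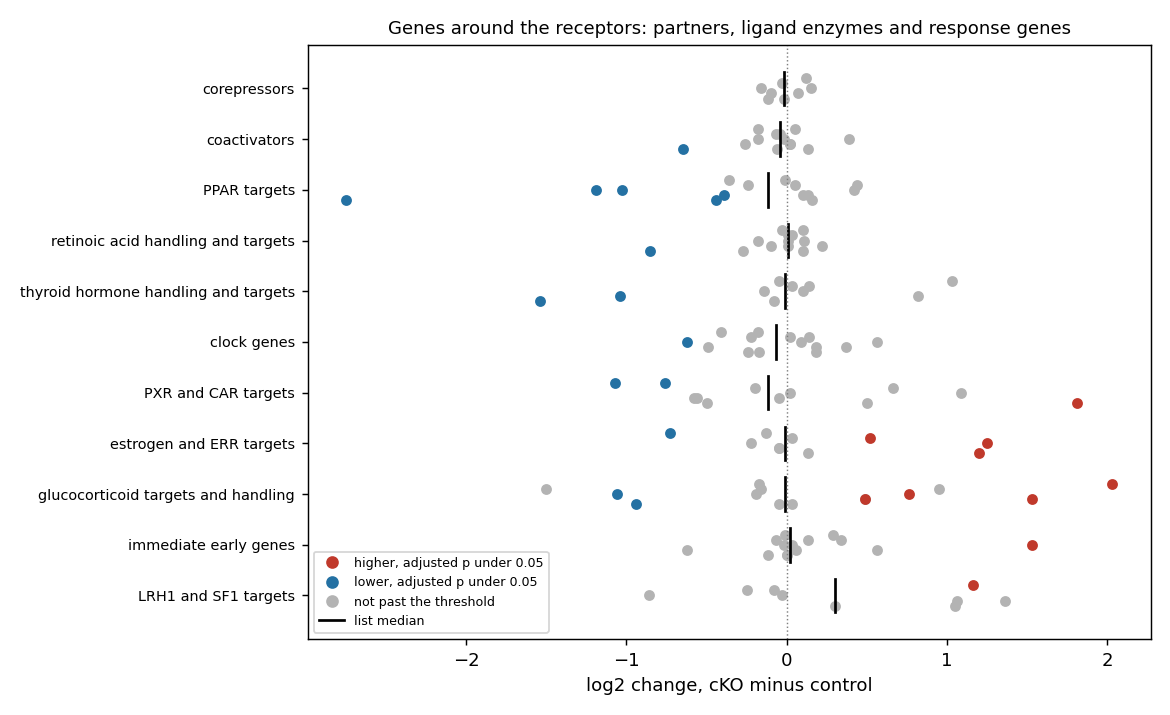
Change of each measured gene (log2, arrays labelled cKO minus control arrays) in 11 lists of receptor partners, ligand enzymes and response genes. Red points rose, blue points fell, grey points were not called, and black bars are list medians. PPAR response genes extend to −2.75 (Cd36), while corepressor genes lie between −0.16 and 0.15.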

How the data were processed

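Labelled RNA from 6 samples was hybridised to Affymetrix Mouse Gene 1.0 arrays. The authors used dChip, as the series' design text says, and deposited log2 levels, 1 for each probe set on each array. For its version, background correction, normalization and centring, nothing is given in the sources used here, and the log base was inferred from the range of the levels, 0 to 14.25, with array medians of 7.73 to 7.84. Scanner files were not used here, so no level could be called above background, and low levels can understate a change. Gene symbols came from the platform annotation. Probe sets naming 1 gene were kept (21789 of 35512), and the one with the highest mean was used for each gene. Each of the 38 receptor genes has 1 such probe set, and none of their values is 0. Groups came from the source names. No 2 arrays held the same values.

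Both groups entered 1 two-sided limma fit (version 3.58.1, lmFit then eBayes, under R 4.3.3) without covariates, further normalization or filters, with Benjamini-Hochberg adjustment over 19938 genes. The procedure was tested on simulated arrays of 19938 genes, with 50 genes given each log2 change of 0.5, 1, 2 and 4. It recovered 28%, 68%, 94% and 98% of them. The simulation gave 148 calls, against 2580 in the data, so these shares do not measure recovery in the data. The receptor genes, the lists and the alternatives were chosen with earlier results of these data known. Genes named are the receptor genes, Gata4 and Gata6, up to 4 called genes of each list by adjusted p, and Dio1, Cyp26b1, Cyp3a11, Cyp11a1, Ppargc1a, Per1 and Fos whether changed or not. Other genes, among them Cpt1a, Adipoq, Fabp4, Xist, Scarb1 and Prox1, were named after their values were seen. Values on every array are given for called receptor genes, for Ppara, whose call changes without control 3 and cKO 2, and for the highest-level further gene of each family. Scan dates and batches were not known.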

Additional observations from a re-analysis of the deposited data

How the results depend on the processing

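Settings changed 1 at a time were the normalization, a pseudocount, the filter on low levels, the choice of probe set, the variance model, array weights, the hepatocyte and erythroid markers as a covariate, the replicate number as a block and the arrays left out. Pparg, Rarg, Nr2f2 and Thrb passed under all 17. The count of receptor genes called higher, 4, lay between 3 and 5 when single arrays were left out and was 6 with the marker covariate, which added Ppard (adjusted p = 0.0304) and Nr4a1 (0.0305). The lower count, 2, was 3 with that covariate, which added Thra (0.0414), 4 with either filter on low levels and with trended, robust variances, 1 with the replicate block, and 1 to 2 with 1 array left out. The pathway genes called lower, 15, were 9 with the block and 9 to 17 with 1 array left out. With the marker covariate 12 pathway genes were higher, against 9, and 19 lower. The count of all genes higher in cKO was 1101, against 622 with the block, 708 without control 3 and cKO 2, and 629 to 959 with 1 array left out. The count of all genes lower in cKO was 1479, against 827 with the block, 878 without control 3 and cKO 2, and 844 to 1322. Deviations from the group means did not go together on arrays sharing a replicate number (r = −0.015, −0.425 and −0.184). With 3 arrays in each group and cKO 2 standing apart, these values cannot decide whether the numbers pair the samples. The labels do not say. With the replicate block Esr1 and Esrrg were no longer called, and Fos was (−0.62, adjusted p = 0.042).

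Of 68 named genes, 30 were called and all 30 kept their direction under every setting. Fewer kept their call, 15 of the 30 under every setting and 20 with each array left out in turn. The sign changes were in 16 uncalled genes. With median centring the changes were −0.01 for Rora and Nr2f6 and −0.04 for Nr2f1, Esrra and Cyp26b1. With quantile normalization they were −0.01 for Rora, −0.02 for Cyp26b1 and 0.00 for Cyp11a1. With array weights they were −0.13 for Rora, −0.01 for Nr2e1 and Cyp26b1, −0.04 for Nr2f1 and −0.03 for Esrra. Without control 3 and cKO 2 they were 0.06 for Nr1d1, −0.36 for Rora, −0.06 for Nr2f1, 0.11 for Esr2, 0.00 for Esrra and Cyp3a11, and 0.04 for Nr0b1. With 1 array left out, Rarb ran from −0.25 to 0.02, Rxrb from −0.04 to 0.03, Nr1d1 from −0.18 to 0.13, Rora from −0.40 to 0.29, Rorb from −0.13 to 0.00, Nr2e1 from −0.04 to 0.17 and Nr2f1 from −0.05 to 0.10. Esr2 ran from −0.15 to 0.06, Esrra from −0.03 to 0.08, Nr3c2 from −0.01 to 0.15, Nr4a3 from −0.19 to 0.09 and Nr0b1 from −0.28 to 0.00. Cyp26b1 ran from −0.03 to 0.06, Cyp3a11 from −0.40 to 1.23 and Cyp11a1 from −0.10 to 0.05. The cause was not tested. The number of arrays limits the precision, and without detection values the lowest levels may be background.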

Other observations

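Genes known to respond to LRH-1 and SF-1, the receptors encoded by Nr5a2 and Nr5a1, included 9 that were measured. Of these, 1 rose and 0 fell (11.1% called, beside 12.9% of all genes), with a median change of 0.30. That median was the change of Ccne1, which was not called. Ccne1 stood at 8.81, 10.01 and 9.39 on cKO 1, 2 and 3, against 9.17, 9.07 and 9.07 in controls. Hsd3b1 and Cel, at 1.05 ± 1.27 and 1.36 ± 0.90, spread widely between arrays and were not called either. The gene that rose was Fdx1, which encodes the electron carrier of mitochondrial steroid synthesis. Fdx1 stood at 9.28, 9.57 and 8.74 on the arrays labelled cKO, against 7.92, 8.10 and 8.08 on the control arrays. The groups did not overlap, and it rose by 1.16 ± 0.21 (limma adjusted p = 0.0146), although it did not pass without cKO 1 or any 1 control array. Cyp11a1, the first enzyme of steroid synthesis, changed by −0.03 ± 0.10.

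Another pair from the same list depended on cKO 2. Scarb1, a lipoprotein receptor, stood at 9.58, 10.54 and 9.57 on cKO 1, 2 and 3, against 10.59, 10.70 and 10.97 on the control arrays. All its cKO values were lower, but the change of −0.86 ± 0.28 was not called (limma adjusted p = 0.102). Among fits with 1 array removed it passed only without cKO 2, at −1.18 (adjusted p = 0.00327). It also passed without control 3 and cKO 2 together, at −1.07 (adjusted p = 0.00605). Prox1, a homeobox gene of liver, lymphatic and enteroendocrine cells, stood at 7.63, 9.15 and 7.83 with the cKO label, against 7.23, 7.16 and 7.05 in controls. Its change of 1.06 ± 0.38 was not called (limma adjusted p = 0.138). Among fits with 1 array removed, Prox1 passed only without cKO 2, with a smaller change of 0.58 (adjusted p = 0.0196). The part of the liver and endothelial markers that were high on cKO 2 was not tested.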
